A study of Mus musculus with 22 samples.

Results

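The genes described here are 7 of the 21154 genes named on the array, subunits of the GABA-A receptor: the alpha subunits Gabra2, Gabra3, Gabra4 and Gabra5, the beta subunits Gabrb1 and Gabrb2, and the delta subunit Gabrd. The members were all probes that are not controls and whose transcript identifier belongs to 1 of these genes, 9 probes of the 55681 in all. Gabra2 and Gabra3 had 2 probes each and the others 1. The RefSeq gene table lists 19 GABA-A subunit genes, so that 12 are not members. The level of a gene is that of its brightest probe, and the second probes are described beside it.

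GABA-A receptors are chloride channels of 5 subunits that carry most fast inhibition in the brain. The alpha and beta subunits together form the site that binds GABA, and a gamma or delta subunit usually completes the channel. The alpha and gamma subunits largely decide where the receptor sits, how fast it closes and which drugs act on it: receptors with alpha-2 are typical of synapses on pyramidal cells, including those on the axon initial segment, whereas alpha-5 receptors and, in dentate granule cells, alpha-4 and delta receptors lie mostly outside the synapse and carry tonic inhibition. The alpha make-up of these receptors is known to be remodelled in the brain after birth.

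Hippocampal RNA of the right hemisphere was measured on 22 one-color Agilent arrays, 1 mouse per array, in untreated TgproNGF#3 and wild-type (WT) mice of strain C57Bl/6xDBA/2. TgproNGF#3 is 1 founder line that over-expresses a proNGF made resistant to furin cleavage, together with EGFP, from the mouse Thy1.2 promoter, which is active in the brain and in neurons after birth. There were 4 TgproNGF#3 and 4 WT males of 1 month, 4 and 4 males of 3 months, and 3 and 3 females of 12 months. The 3 ages lie on separate slides. Age and slide, and at 12 months also sex, cannot be told apart. At 12 months the 3 TgproNGF#3 arrays lie in the second row of the slide with WT replicate 3, and WT replicates 1 and 2 lie in the first row.

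Levels are given as the log2 signal minus the 75th percentile of the spots well above background on the same array, so that 0 is that percentile and 1 unit is a doubling. They compare groups for 1 probe and do not rank one gene against another. On each array, spots well above background made up between 69.76% and 80.27% at 1 month, between 57.6% and 64.7% at 3 months and between 60.7% and 67.68% at 12 months. In whole hippocampus, fewer cells of a type and less RNA per cell cannot be told apart. Each of the 9 member probes was well above background on all 22 arrays and none was marked as an outlier. Of the marker lists, all 4 genes of CA1 pyramidal neurons, 4 of 5 of CA3 neurons, all 7 of dentate granule neurons and all 8 of interneurons had a value on every array. All 5 markers of choroid plexus were measured as well. Their mean level ran from -1.53 to 3.02 over the arrays, the widest range of the 12 marker lists.

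Gabra2 is the member whose level differed most between ages, and the stretch before its start is shown for that reason. It is the 250 bases upstream of the annotated Gabra2 start in the RefSeq promoter table (GRCm38.p6, minus strand, chr5:71095850-71096099), printed 5′ to 3′ with the letters GGGCGG of a GC box in capitals.
Gabra2: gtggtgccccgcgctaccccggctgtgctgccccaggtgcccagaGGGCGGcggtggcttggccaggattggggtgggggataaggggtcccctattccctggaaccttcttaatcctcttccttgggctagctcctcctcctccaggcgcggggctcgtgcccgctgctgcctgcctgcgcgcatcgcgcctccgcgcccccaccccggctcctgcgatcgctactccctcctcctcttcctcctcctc

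Of these bases 70.0% are G or C, against a median of 52.0% over the same stretch of 27025 genes, and 18 CG pairs lie in it. The stretch holds 1 GC box (GGGCGG or its reverse complement), as do 32.9% of all such stretches, and neither TATAAA nor TGACGTCA, which 13% and 1.62% hold. The table has a promoter for 6 of the 7 members, and a GC box was also found for Gabra4 (2) and Gabrb2 (1). TATAAA or its reverse complement was found for Gabra3 and Gabrb2. In the gene order of the same assembly, Gabra2 lies on chromosome 5 in a run of subunit genes, Gabrg1, Gabra2, Gabra4 and Gabrb1. Gabra5 lies on chromosome 7, Gabrb2 on chromosome 11, Gabra3 between Gabre and Gabrq on X, and Gabrd on chromosome 4. Motif matches are letters in a window and were not related to any measurement.

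**Figure D1:**
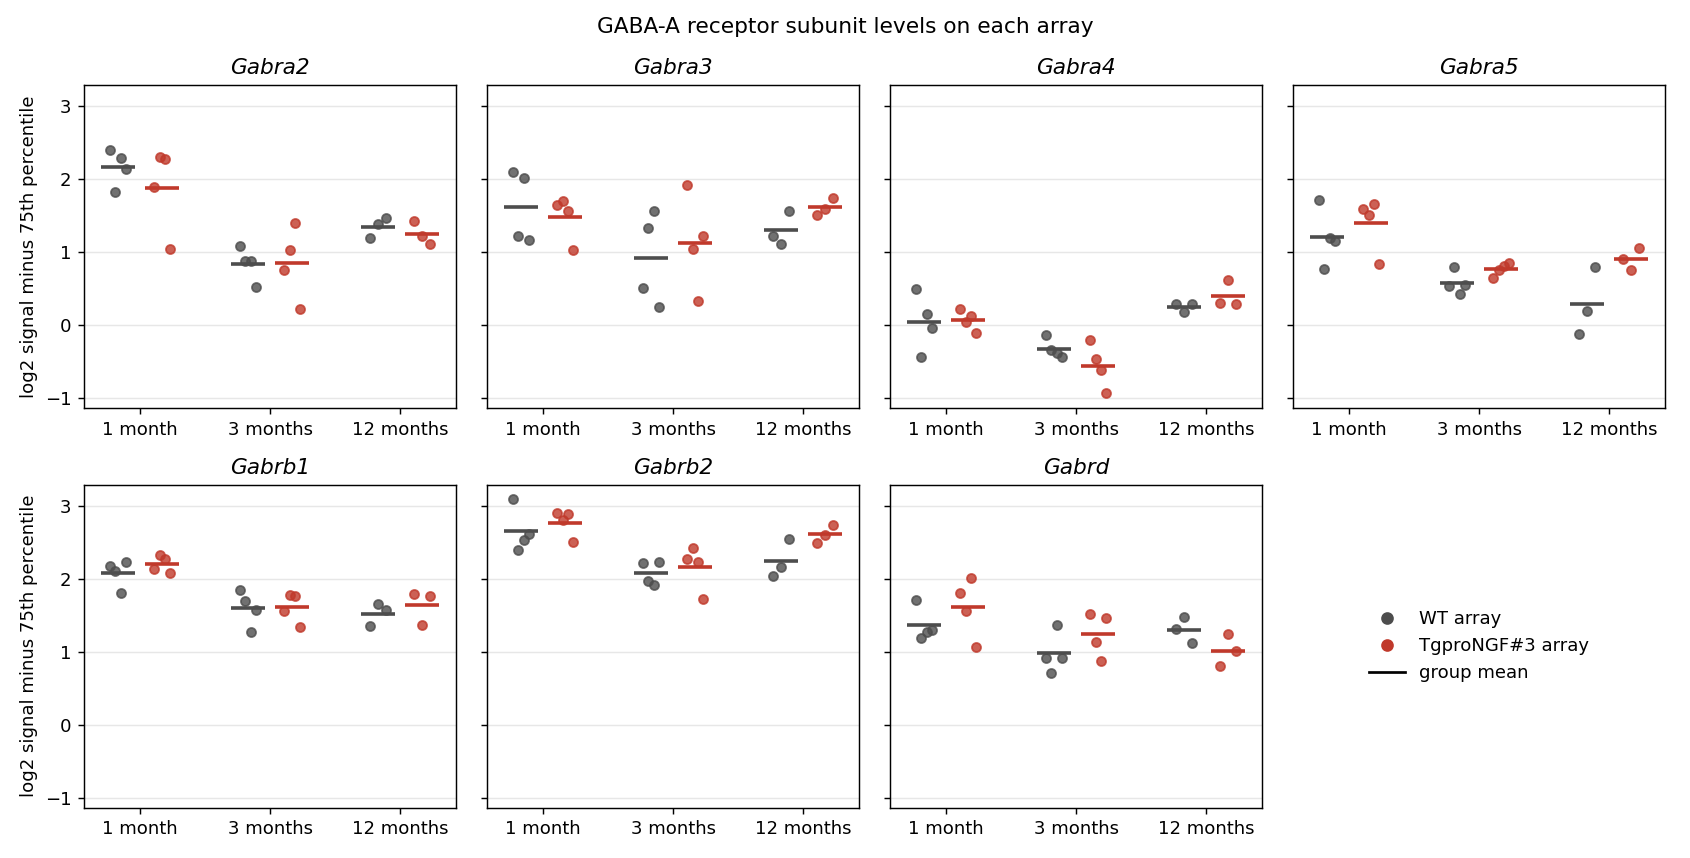
Level of each subunit gene on every array (y axis, log2 signal minus the 75th percentile of the array) at 1, 3 and 12 months (x axis), with gray points for WT, red points for TgproNGF#3 and a line at each group mean. The Gabra2 levels of the 4 WT mice of 1 month lie above those of the 4 WT mice of 3 months, and the genotypes overlap in every panel and age.

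The first question was whether over-expression of proNGF goes with a different level of these subunits. No member passed the study's thresholds, an unadjusted p below 0.05 with a log2 difference beyond 1 in either direction, at any age, and none had a limma adjusted p below 0.05. TgproNGF#3 and WT levels overlapped for all 9 probes at all 3 ages, whereas they did not overlap for 3.32%, 20.3% and 15.5% of all probes at 1, 3 and 12 months. Over all probes tested, the thresholds called 0.570% at 1 month, 6.76% at 3 months and 1.30% at 12 months. An adjusted p below 0.05 was reached by 0%, 8.43% and 0% of probes, and an unadjusted p below 0.05 by 3.47%, 27.2% and 9.05%. Among the 9 member probes the unadjusted count was 0, 0 and 1.

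The intervals show how far a difference could go. At 1 month the 7 genes ranged from -0.29 for Gabra2 (95% interval -0.92 to 0.35) to 0.25 for Gabrd (-0.26 to 0.75), with a median of 0.11 against 0.07 over all probes. At 3 months they ranged from -0.23 for Gabra4 (-0.62 to 0.16) to 0.27 for Gabrd (-0.17 to 0.71), with a median of 0.08 against -0.12. At 12 months they ranged from -0.29 for Gabrd (-0.68 to 0.11) to 0.62 for Gabra5 (0.06 to 1.18), with a median of 0.15 against 0.01. Of these 21 intervals, those of Gabra3 at 3 months (-0.64 to 1.07) and of Gabra5 at 12 months reach past 1, and the other 19 lie within a log2 difference of 1 in both directions.

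**Figure D2:**
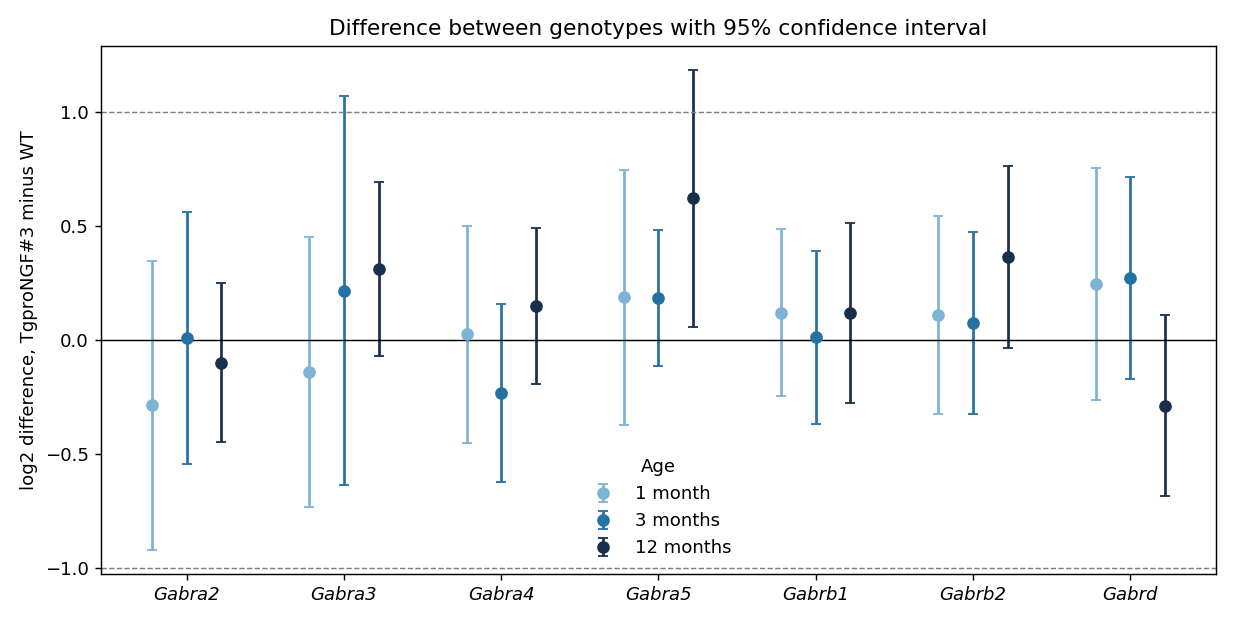
Difference between TgproNGF#3 and WT mice (y axis, log2) for each subunit gene (x axis) at 1, 3 and 12 months, with the 95% confidence interval from limma as bars and dashed lines at the study's fold threshold. The interval lies off 0 for Gabra5 at 12 months alone, where it runs from 0.06 to 1.18.

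Gabra5, the alpha subunit of most extrasynaptic receptors on hippocampal pyramidal cells, was the 1 member with an unadjusted p below 0.05. At 12 months its level was 0.91, 0.76 and 1.06 in TgproNGF#3 replicates 1 to 3 and -0.13, 0.20 and 0.80 in WT replicates 1 to 3. The highest WT array reached into the TgproNGF#3 range. The difference was 0.62 ± 0.24 (SE, n = 3 and 3; limma p = 0.035, adjusted p = 0.549), and the two-sided exact permutation test gave p = 0.2, where the smallest possible with 3 against 3 is 0.1.

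That highest WT array is replicate 3, the WT array in the row of the TgproNGF#3 arrays. The difference between the TgproNGF#3 mean and this array was 0.11, whereas the mean of the WT arrays in the other row was at a level of 0.035. Gabrb2, a beta subunit of the most common synaptic receptors, had the same layout. Its levels were 2.495, 2.60 and 2.74 in TgproNGF#3 mice and 2.05, 2.16 and 2.54 in WT replicates 1 to 3, a difference of 0.36 (adjusted p = 0.555). Against WT replicate 3 alone it was 0.07.

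Gabra3, another alpha subunit, showed it too. Its WT replicate 3 was at 1.57 and the other WT arrays at 1.22 and 1.12, beside 1.51 to 1.74 in TgproNGF#3 mice. The mean of the 8 interneuron markers followed the same arrays, with 2.12 in WT replicate 3, 1.41 and 1.63 in the other WT mice and 2.06 to 2.39 in TgproNGF#3 mice. None of these 8 genes had an adjusted p below 0.05, nor did any probe on the array at this age. The layout was not particular to interneuron markers. The means of the other GABA-A subunits, of the anchoring genes described below and of the thalamus markers had it too. For thalamus WT replicate 3 was at -0.83, the other WT mice at -1.49 and -1.22 and TgproNGF#3 mice at -1.16 to -0.70. Other lists, such as those of dentate granule and CA3 neurons, did not have it. With the row as a term in the fit, an alternative added after the values had been seen, the Gabra5 difference was 0.11 ± 0.23 (SE, 95% interval -0.44 to 0.66, limma adjusted p = 1), and the 9 member probes ran from -0.21 to 0.17. That estimate rests on this 1 WT array. The part of the tissue content was not tested. Without WT replicate 3 the Gabra5 difference was 0.88 (adjusted p = 0.103), and without WT replicate 1 it was 0.41 (adjusted p = 0.918).

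**Figure D3:**
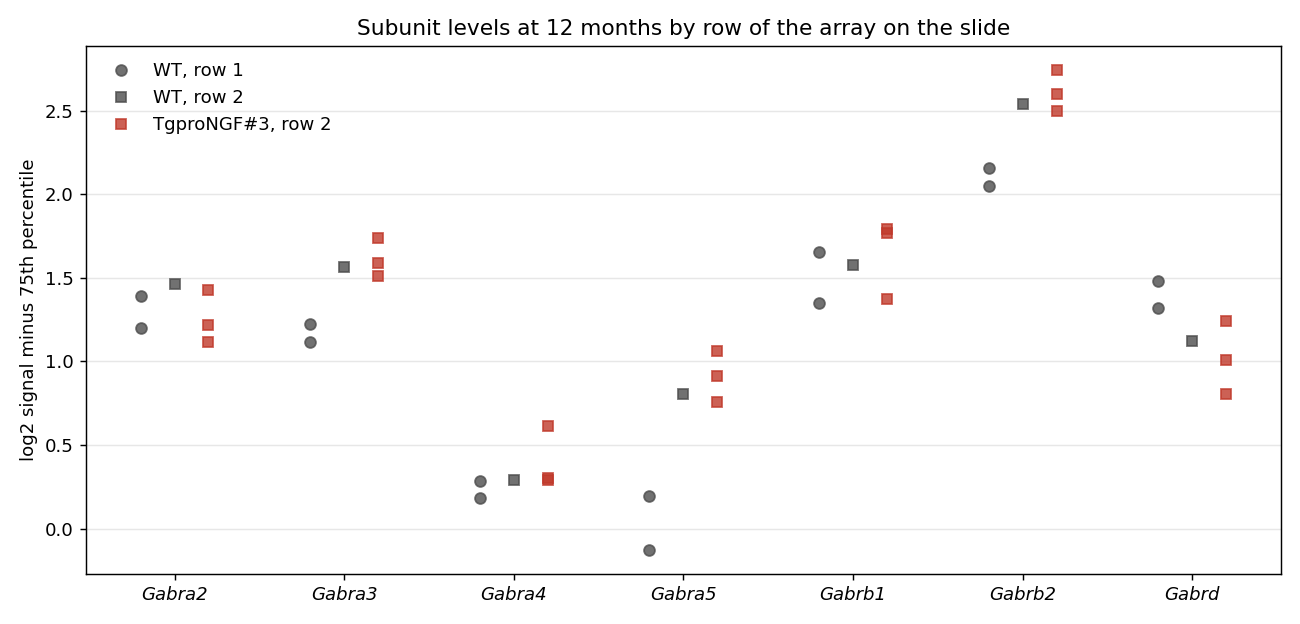
Levels at 12 months (y axis, log2 signal minus the 75th percentile) of each subunit gene (x axis), with WT arrays of the first slide row as gray circles, the WT array of the second row as a gray square and the TgproNGF#3 arrays of the second row as red squares. The WT array of the second row lies inside the TgproNGF#3 range for 6 of the 7 genes, all but Gabra2.

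Gabrd, the delta subunit of tonic receptors in dentate granule cells, differed in sign between ages. TgproNGF#3 mice were 0.25 above WT at 1 month and 0.27 above at 3 months, and 0.29 below at 12 months. At 12 months the levels were 0.81, 1.24 and 1.01 against 1.32, 1.48 and 1.12 in WT. The genotype difference at 12 months minus that at 3 months was -0.56 (adjusted p = 0.28 in limma), and -0.37 (adjusted p = 0.796) with the row as a term. No member had an adjusted p below 0.05 for a change of the genotype difference with age, neither from 1 to 3 months (1.75% of all probes) nor from 3 to 12 months (4.01%). None had an unadjusted p below 0.05 either, beside 13.1% and 20.0% of all probes.

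Gabra4, the alpha partner of delta, and the beta subunit Gabrb1 had small differences at each age. The Gabra4 difference was 0.03, -0.23 and 0.15 at 1, 3 and 12 months and the Gabrb1 difference 0.12, 0.01 and 0.12. Gabra2 spread more among TgproNGF#3 mice than among WT mice at the younger ages. At 1 month its level was 1.89, 2.31, 2.28 and 1.04 in TgproNGF#3 replicates 1 to 4 and 2.40, 1.83, 2.29 and 2.14 in WT replicates 1 to 4. At 3 months it was 0.75, 1.04, 1.40 and 0.23 against 1.09, 0.89, 0.88 and 0.52. The lowest array at each of these ages, replicate 4, lay below every WT array of that age. It also had the lowest share of spots well above background of its age, 69.76% at 1 month and 57.6% at 3 months. Replicate 4 was the lowest TgproNGF#3 array for all 7 genes at 1 month and for Gabra2, Gabra4, Gabrb1 and Gabrb2 at 3 months. Without replicate 4 the Gabra2 difference from WT was -0.007 at 1 month and 0.22 at 3 months. The difference in spread was not tested.

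The other question was how the subunits compare over the ages in WT mice. From 1 to 3 months the median of all 33683 probes tested fell by 0.45 on this scale, so that each change is also given relative to that median. Gabra2 changed most. Its WT levels at 1 month, listed above, lay between 1.83 and 2.40 and at 3 months between 0.52 and 1.09, and the groups did not overlap. The mean fell by 1.32 ± 0.17 (SE, n = 4 and 4; limma adjusted p = 0.000333), a change of -0.88 relative to all probes, which corresponds to 1.84-fold. The second Gabra2 probe, whose identifier is that of a curated transcript where the first has a predicted one, gave -1.34 (adjusted p = 0.000555) and -0.90 relative to all probes. The 2 probes followed each other over the 22 arrays with a Pearson r of 0.951 after the mean of each age was taken off.

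Gabra2 was called under each scaling of the arrays that was tried. With the percentile taken over all spots, or with the authors' own log2 values, the median of all probes was at 0.01 and -0.03 and the Gabra2 difference was -0.865 (adjusted p = 0.0048) and -0.91 (adjusted p = 0.00296). Over 20 alternatives the Gabra2 difference ran from -1.55 to -0.865, with an adjusted p between 0.000229 and 0.0048. Set against the mean of the other 6 subunits on the same array, which a shift of the whole array does not affect, Gabra2 went from 0.67 ± 0.13 (SD, n = 4) at 1 month to -0.13 ± 0.18 at 3 months. The 4 values of 1 month, 0.52, 0.62, 0.80 and 0.74, lay above the 4 of 3 months, 0.11, -0.15, -0.15 and -0.33.

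Gabra5 (-0.63, adjusted p = 0.0365), Gabrb1 (-0.49, adjusted p = 0.0285) and Gabrb2 (-0.58, adjusted p = 0.0209) also fell from 1 to 3 months in WT mice under the main scaling. With both Gabra2 probes this makes 5 of 9 member probes, against 43.1% of all probes that fell and 1.56% that rose. Relative to the median of all probes these 3 genes changed by -0.18, -0.04 and -0.13, and none had an adjusted p below 0.05 with the percentile over all spots or the authors' values, where the Gabra2 probes were the 2 called. Under those scalings 5.53% and 7.75% of all probes were lower and 7.49% and 7.20% higher. Gabra4 (-0.37, adjusted p = 0.113) and Gabrd (-0.39, adjusted p = 0.0839) stood at 0.08 and 0.06 relative to the median, and both had a difference above 0 under those scalings.

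Gabra3 had a wide spread among mice. Its levels in WT mice were 2.10, 1.23, 2.02 and 1.16 at 1 month and 0.51, 1.34, 1.56 and 0.25 at 3 months, and the groups overlapped (difference -0.71, adjusted p = 0.0709). Its second probe was much dimmer, between -6.08 and -4.25 over the 22 arrays, and gave -0.15 (adjusted p = 0.665). The Gabra3 probes did not follow each other over the arrays (r = -0.171 over 22 arrays with age means taken off), and at 3 months they differed in the sign of the genotype difference (0.22 and -0.39). What each of the pair measures was not tested.

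The ages were compared within TgproNGF#3 mice as well, a comparison added after the WT values had been seen. From 1 to 3 months the median of all probes fell by 0.64, and 62.8% of all probes fell and 0.842% rose. Of the 9 member probes 6 fell, both of Gabra2 (-1.03 and -1.15, adjusted p = 0.0111 and 0.00508) and those of Gabra4, Gabra5, Gabrb1 and Gabrb2. The last 4 genes stood between 0.005 and 0.043 relative to the median of all probes. Gabra2 stood at -0.39 relative to that median, and with the percentile over all spots (-0.37, adjusted p = 0.303) or the authors' values (-0.47, adjusted p = 0.217) it was no longer called, nor was any other member. Under these scalings 9.01% and 11.7% of all probes were lower and 8.55% and 7.19% higher. Set against the mean of the other 6 subunits on the same array, Gabra2 went from 0.29 ± 0.38 (SD, n = 4) at 1 month to -0.21 ± 0.54 (n = 4) at 3 months. Unlike in WT mice, these groups overlapped. The test of whether the Gabra2 age difference differed between the genotypes gave 0.30 (adjusted p = 0.821).

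**Figure D4:**
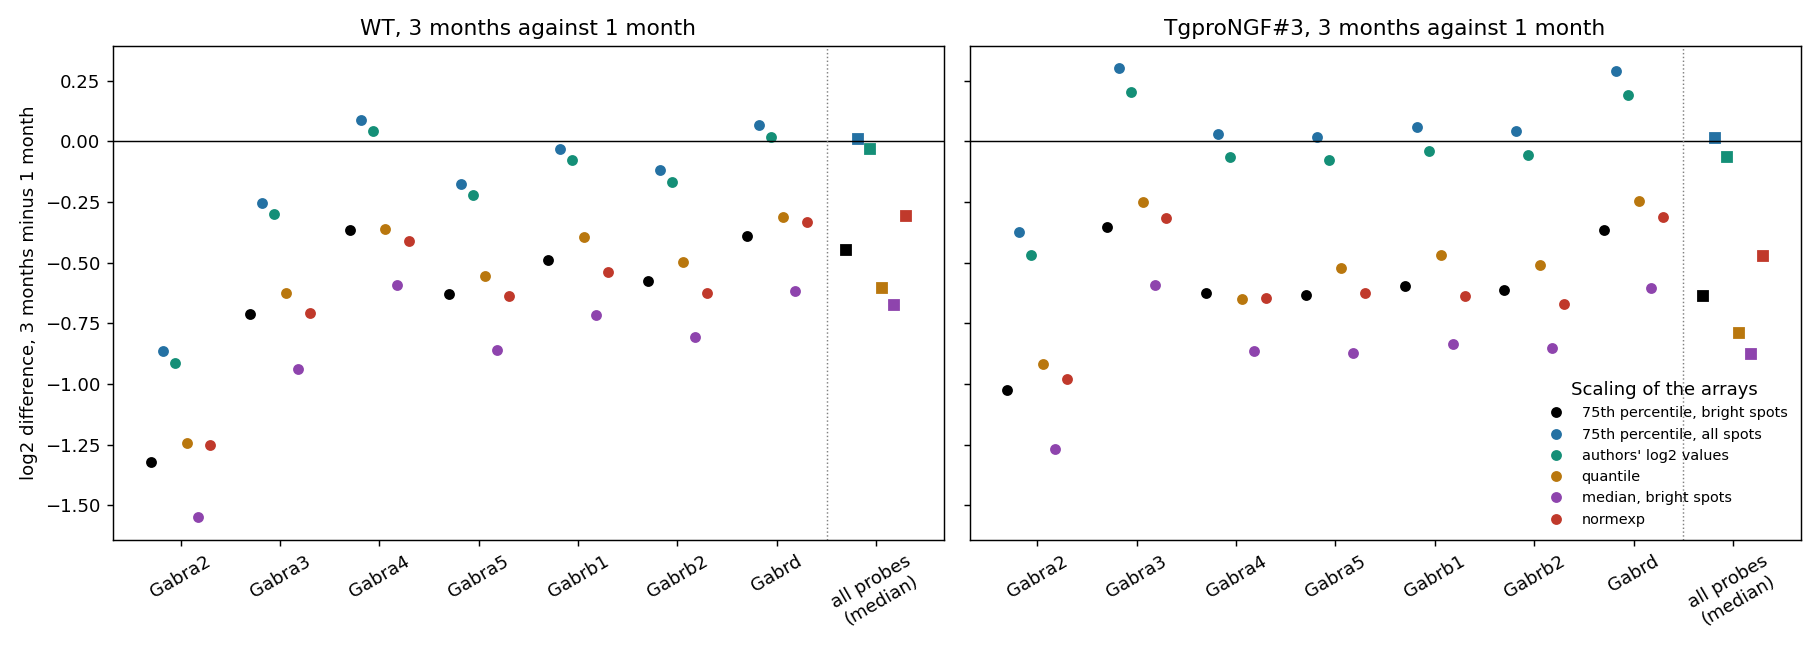
Difference between 3 months and 1 month (y axis, log2) for each subunit gene and, as squares, for the median of all probes (x axis), in WT mice on the left and TgproNGF#3 mice on the right, with 1 color per scaling of the arrays. In WT mice Gabra2 runs from -1.55 to -0.865 and lies below the median of all probes in each color, whereas the other subunits lie nearer to it.

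From 3 to 12 months, where sex also changes, no member probe had an adjusted p below 0.05 in WT mice, against 7.55% of all probes that rose and 2.06% that fell. An unadjusted p below 0.05 was reached by 3 of 9 member probes, both of Gabra2 and that of Gabra4, all higher at 12 months, beside 18.5% of all probes higher and 7.48% lower. Gabra2 was 1.20, 1.39 and 1.46 at 12 months, all above the 3-month values, a difference of 0.51 (adjusted p = 0.0972), and 0.61 for the second probe (adjusted p = 0.084). Gabra4 was 0.29, 0.18 and 0.29 at 12 months and -0.13, -0.33, -0.38 and -0.44 at 3 months, a difference of 0.57 (adjusted p = 0.0857). With the authors' log2 values all 3 probes passed, where 9.56% of all probes rose and 4.57% fell, Gabra2 at 0.515 (adjusted p = 0.031) and Gabra4 at 0.58 (adjusted p = 0.0184). On the main scale the mean Gabra2 level in WT mice was highest at 1 month (2.17 ± 0.25, SD, n = 4). It was 1.35 ± 0.14 (n = 3) at 12 months and lowest at 3 months (0.84 ± 0.24, n = 4). The levels at 12 and 3 months were not separated by the adjusted test on this scale, and 12 months was not tested against 1 month.

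In TgproNGF#3 mice Gabra4 was the 1 member that rose from 3 to 12 months, where 20.0% of all probes rose and 4.01% fell. Its levels were -0.20, -0.46, -0.61 and -0.93 at 3 months and 0.30, 0.62 and 0.29 at 12 months, and the groups did not overlap. The difference was 0.95 ± 0.19 (SE, n = 3 and 4; limma adjusted p = 0.00457), or 0.73 relative to the median of all probes. It kept an adjusted p below 0.05 under all 18 alternatives, between 0.76 and 1.09. The Gabra4 age difference was not shown to differ between the genotypes (0.38, adjusted p = 0.395).

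The levels of Gabrb1, Gabrb2, Gabra5 and Gabrd at 12 months in WT mice were within 0.33 of those at 3 months. Gabrb1 was at 1.53 ± 0.16 against 1.60 ± 0.24 and Gabrb2 at 2.25 ± 0.26 against 2.08 ± 0.16. Gabra5 was at 0.29 ± 0.47 against 0.58 ± 0.155 and Gabrd at 1.31 ± 0.18 against 0.98 ± 0.28 (SD, n = 3 and 4). The brighter Gabra3 probe differed by 0.39 (limma adjusted p = 0.501) and the dimmer one by -0.28 (limma adjusted p = 0.598).

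The other GABA-A subunit genes give the frame for these values. Of the 12, 7 had a probe well above background on every array. Gabre and Gabrq had no value on any array, and Gabra6, Gabrp and Gabrr3 on some. None of these differed between genotypes at any age with an adjusted p below 0.05, out of 9, 8 and 7 tested at 1, 3 and 12 months. Of all probes, 0%, 8.43% and 0% did at these ages. In WT mice 3 of the 7 tested fell from 1 to 3 months, near the 43.1% of all probes that fell, with a median of -0.46 over the 7 against -0.45 over all probes. Among them was Gabrg3 (-0.81, adjusted p = 0.009), a gamma subunit, which stood at -0.36 relative to the median of all probes. From 3 to 12 months none of the 7 had an adjusted p below 0.05 in WT mice, against 7.55% of all probes that rose and 2.06% that fell.

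Genes that anchor, assemble or move these receptors were counted as a list of 22, all of them measured on every array. None had an adjusted p below 0.05 between genotypes at any age, beside 0%, 8.43% and 0% of all probes at 1, 3 and 12 months. From 1 to 3 months 14 of 22 fell in WT mice, beside 43.1% of all probes, with a median of -0.60 against -0.45 over all probes. Among them were Gphn (-0.66), the gephyrin scaffold of inhibitory synapses, and Rdx (-0.95), radixin, which anchors alpha-5 receptors outside the synapse. Relative to the median of all probes these stood at -0.22 and -0.51. Calls for the other subunits and the anchoring genes were made on the main scale only. From 3 to 12 months 2 of 22 rose in WT mice, beside 7.55% of all probes, Rdx (0.83, adjusted p = 0.0191) and Plcl1 (1.23, adjusted p = 0.0201), a phospholipase-like protein that binds GABA-A receptors. In TgproNGF#3 mice 15 of 22 fell from 1 to 3 months, near the 62.8% of all probes that fell, with a median of -0.64 in the list and over all probes. From 3 to 12 months 9 rose and 1 fell, beside 20.0% and 4.01% of all probes, with a median of 0.285 against 0.22.

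Cell markers also moved between the slides of 1 and 3 months in WT mice. The median of the 5 oligodendrocyte markers was -1.145 and that of the 5 astrocyte markers -0.505. In each list 4 of 5 were lower with an adjusted p below 0.05. Over all probes the median was -0.45, and 43.1% were lower by the same rule. The 4 CA1 markers had a median of -0.28 and the 7 dentate markers -0.51, with 1 lower in each list. Of the 8 interneuron markers 4 were lower (median -0.58), and of the 4 CA3 markers tested 2 were (median -0.48). Marker calls were made on the main scale only. The mean level of the CA1 markers ran from 0.13 to 0.61 at 1 month and from -0.20 to 0.02 at 3 months, and that of the interneuron markers from 2.16 to 2.56 and from 1.30 to 1.85. Their part in the Gabra2 difference was not tested.

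Over the 22 arrays, with the mean of each age taken off, the member genes followed each other to different degrees. The 21 pairs had a median Pearson r of 0.35, from -0.299 for Gabra3 with Gabrb1 to 0.736 for Gabra5 with Gabrb2, which also shared the 12-month layout described above. Gabra4 and Gabrb1, neighbours on chromosome 5, had an r of 0.102, and Gabra2 and Gabra4 an r of 0.412. These arrays share slide, scaling and RNA content, and the values are descriptions. Of 14507 genes with a value on every array, the 2 most like each member by Pearson r were Ccdc77 (0.922) and Ptprb (0.895) for Gabra2, Magi1 (0.883) and Vma21 (0.877) for Gabra3, and Kbtbd2 (0.915) and Agfg1 (0.904) for Gabra4. They were Rab39b (0.933) and Dnajc30 (0.925) for Gabra5, Dpf2 (0.923) and Prdx5 (0.917) for Gabrb1, Fam155a (0.942) and Crbn (0.939) for Gabrb2, and D16Ertd472e (0.851) and Ccp110 (0.848) for Gabrd.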

How the data were processed

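Each array held the hippocampal RNA of 1 mouse. The authors scanned the one-color arrays with Agilent Feature Extraction, and the deposited files give the processed signal intensity of each spot with its background and outlier marks. The authors also deposited a table of log2 values, used here only as an alternative. The array headers name build mm9, and the RefSeq tables are of GRCm38.p6. The only coordinates given, those of the Gabra2 promoter, and the gene order are of the latter. The labels name total RNA, with an RNA integrity number of at least 8.

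Controls, outliers and spots not well above background were dropped. From each log2 value the 75th percentile of what remained on its array was subtracted, and spots of a probe were averaged. A probe was tested where each group had 2 or more values. Differences were tested with limma 3.58.1 in R 4.3.3, with Benjamini-Hochberg adjustment over all probes. Genotypes were compared with the arrays of that age, and ages within the 11 arrays of a genotype. Changes of the genotype difference with age used all 4 groups of the ages compared. The number of arrays limits the precision, and the scripts were tested on simulated data. The normexp alternative used the median spot signals. No column was left without a sample (0).

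Groups and replicate numbers came from the labels. Same-numbered TgproNGF#3 and WT arrays deviated together at 1 month (correlations 0.511, 0.272, 0.191 and 0.208 over 36103 probes), but not at 3 months (-0.356 to -0.0234) or 12 months (-0.316 to 0.0503). They share a slide row at both 1 and 3 months. All member genes are named. Other GABA-A subunits may be named, and anchoring genes only with an adjusted p below 0.05. Some genes of these lists are not reported here by name. The genes most like a member were the 2 with the highest Pearson r. The members, lists and tests were chosen with earlier results of these data known. The alternatives were other scalings, background handling, filters, blocks, 1 fit of all 22 arrays, and leaving out each replicate.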

Additional observations from a re-analysis of the deposited data

How the results depend on the processing

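No genotype difference of a member had an adjusted p below 0.05 under any alternative that was run, and no change of that difference with age did. With all replicates kept, the alternatives called 0% of all probes at 1 month, 2.33% to 14.9% at 3 months and 0% to 0.00691% at 12 months. For the change with age they called 0.751% to 2.68% from 1 to 3 months and 0.368% to 5.12% from 3 to 12 months. With a log2 fold threshold of 0.5, 1 member (Gabra5) passed the study's thresholds at 12 months, beside 6.15% of all probes. The count of member probes lower in WT mice at 3 than at 1 month was 5, but 2 with the 75th percentile over all spots and 2 with the authors' log2 values. It was 7 with the median of the spots kept, and 4 with quantile normalization and with dim spots kept, where 58.7%, 55.4% and 28.9% of all probes were lower. It ran from 2 to 7 when 1 replicate was left out, with both Gabra2 probes called each time. It was 2 without WT 1 month replicate 1 and 3 without WT 3 months replicate 4. From 3 to 12 months in WT mice the count was 0, but 2 with the percentile over all spots and 3 with the authors' values, and 0 without any 1 replicate. In TgproNGF#3 mice the count from 1 to 3 months was 6, but 0 under both of those scalings and 7 with the median of the spots kept (79.1% of all probes lower), and 6 to 8 without 1 replicate. From 3 to 12 months it was 1, and 1 to 2 without 1 replicate, with 2 without TgproNGF#3 3 months replicate 3. With the percentile over all spots the TgproNGF#3 differences from 1 to 3 months turned sign, to 0.03 for Gabra4, 0.02 for Gabra5, 0.059 for Gabrb1 and 0.042 for Gabrb2. Those of Gabra3 and Gabrd, not called before or after, turned to 0.301 and 0.289. The cause of these shifts was not tested.

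With the replicate number as a block, the counts of member probes called were 5 (WT, 1 to 3 months), 0 (WT, 3 to 12 months), 6 and 1 (TgproNGF#3), and 0 for each genotype comparison and for each change with age. With this block Gabra3 was called in WT mice from 1 to 3 months in place of Gabra5. Between ages the block joins different mice that share a replicate number, so that it is not a pairing. The array row as a block changed no count of member probes called in any comparison. At 12 months it moved the genotype difference of Gabra5 from 0.62 to 0.11, and that of Gabrb2 from 0.36 to 0.07. This block was added after the values had been seen where the 12-month TgproNGF#3 arrays enter, all of which lie in 1 row.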
